A study of Drosophila melanogaster with 6 samples.

Results

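The genes described here belong to families grouped as digestive enzymes of the fly gut, and the choice did not use where they are expressed. They were chosen by name: every row of the deposited table whose FlyBase identifier carries a symbol of the Jonah proteases (Jon), the Greek-letter trypsins (alphaTry to lambdaTry), the maltases (Mal-A and Mal-B), the amylases (Amy), the alpha-mannosidases (LMan), the lysozymes (LysB to LysX) or the Npc2 proteins. The rule found 60 of the 17558 genes in the table, all 60 of the matching symbols in the name table. They were 16 Jonah proteases, 11 trypsins, 10 maltases, 2 amylases, 6 alpha-mannosidases, 7 lysozymes and 8 Npc2 proteins. Expression was measured by RNA sequencing in adult male Drosophila melanogaster, 12 h after Micrococcus luteus, a Gram-positive elicitor of the Toll immune pathway, had been injected. The 3 control libraries carry the genotype Gal80ts; Tub-Gal4/P{CaryP}attP40 and the other 3 carry Gal80ts; Tub> CR46018, in which a tubulin driver expresses the long non-coding RNA CR46018. Both groups carry Gal80ts, a temperature-sensitive repressor of Gal4, and both were infected; no uninfected flies are part of the comparison. The tubulin driver is active in most tissues and is not restricted to the gut. The labels do not say which tissue was taken, how many animals each library holds or whether replicates are independent fly batches. The p-values therefore rest on the spread among these libraries alone, which may be technical.

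Dietary protein is cut in the midgut lumen by serine proteases, of which the trypsins cleave after basic residues and the Jonah proteases form a related, chymotrypsin-like family. Starch and sugars are broken down by amylases and by maltases, which are alpha-glucosidases. The lysozymes cut the peptidoglycan of bacterial walls and are made in the fly gut, where they help to digest bacteria. Alpha-mannosidases remove mannose from glycans, and Npc2 proteins bind sterols and are not enzymes, so the name digestive enzymes holds for most but not all of these genes.

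The files gave between 15084193 and 17396893 recovered reads per library, of which 1.34% to 1.56% fell on the digestive genes. All levels below are in FPKM, fragments counted per gene after scaling to gene length and library size. For CR46018 itself, no control library had a read, and overexpression replicates 1 to 3 had 3, 1 and 0 (exact two-sided permutation test, p = 0.4, where 3 against 3 libraries allow no p below 0.1). The low count does not show the overexpression that the labels name, and the group names below follow the labels. The design cannot tell overexpression apart from other differences between the 2 fly stocks.

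Of the 60 genes, 54 passed the filter of a mean of at least 1 FPKM over the 6 libraries and were tested. In flies labelled as overexpressing CR46018, 12 of the 54 were lower and 3 were higher than in controls (limma on log2(FPKM + 1), Benjamini-Hochberg adjusted p under 0.05 over 12251 genes). Those are 22.2% and 5.56% of the tested members, against 6.31% lower and 2.45% higher among all genes tested; in either direction the shares were 27.8% and 8.76%. The groups of 3 libraries did not overlap for 21 of the 54 genes (38.9%), against 28.4% of all genes tested. The median log2 fold change of the 54 genes was -0.13, beside -0.0024 for all genes tested. In bulk RNA, fewer cells of a type and less RNA per cell cannot be told apart. After each library was scaled to the same FPKM total, 7 were higher and 10 lower, against 6.74% higher and 3.95% lower of all genes. Scaling by the median ratio over genes gave 4 higher and 12 lower members, against 320 and 703 of all genes. Quantile normalization gave 5 and 10, against 399 and 652. The counts thus depended on the scaling, while more members were lower than higher under each. Counts of higher members also moved between 1 (without control replicate 2 or control replicate 3) and 6 (without control replicate 1).

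**Figure D1:**
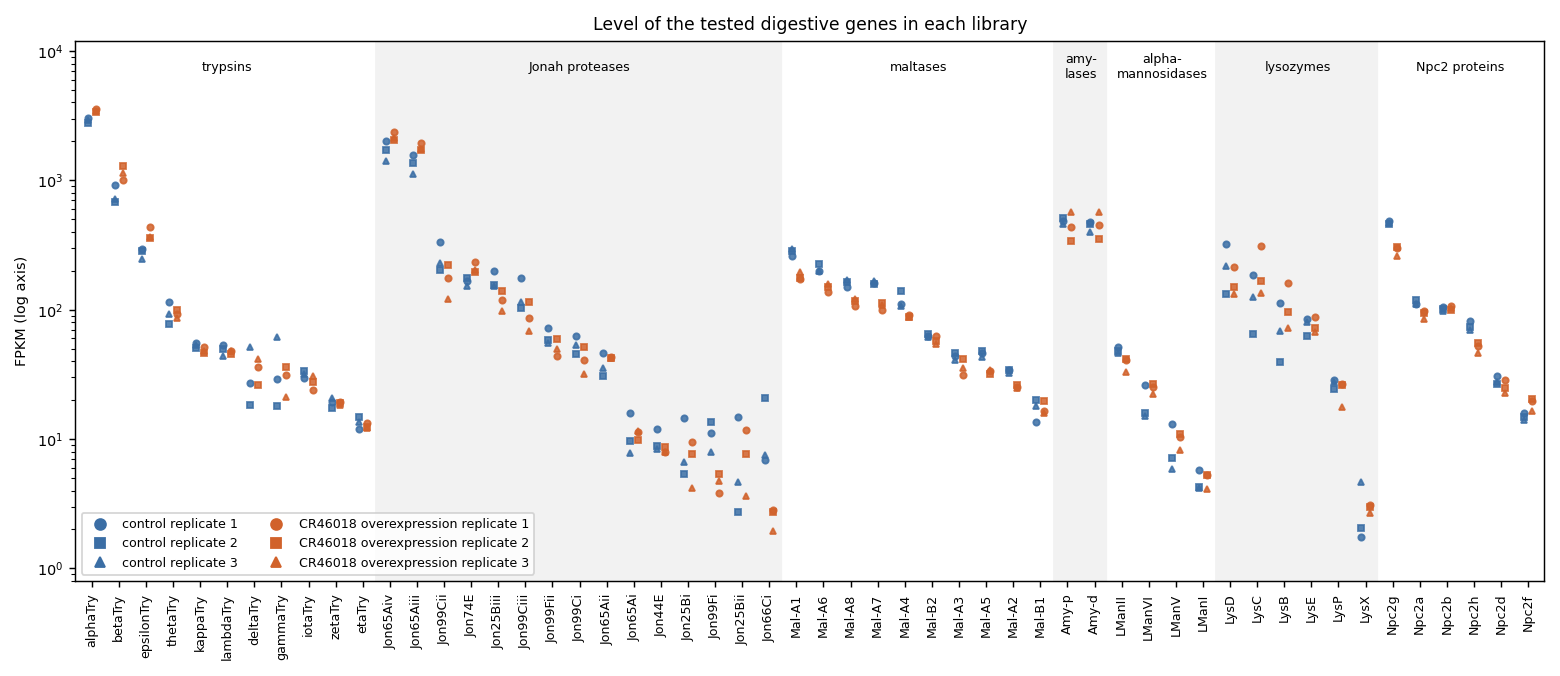
FPKM on a log axis of the 54 tested genes, grouped by class and ordered by mean level, with 1 point per library; blue points are control libraries, orange points are overexpression libraries, and the marker shape gives the replicate. The maltases Mal-A1, Mal-A7 and Mal-A8 and the sterol-binding gene Npc2g show orange points below all blue ones, and alphaTry, betaTry and epsilonTry show the opposite.

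By class, the calls were as follows, beside 6.31% lower and 2.45% higher among all genes tested. Among 10 maltases 7 fell and 0 rose, among 6 tested Npc2 genes 3 fell and 0 rose, among 11 trypsins 2 rose and 0 fell, and among 15 tested Jonah proteases 1 rose and 2 fell. The median log2 fold changes were -0.43 for the maltases, -0.23 for the Npc2 genes, -0.02 for the trypsins and -0.23 for the Jonah proteases, beside -0.0024 for all genes tested. No member passed among the 2 amylases, the 4 tested alpha-mannosidases and the 6 tested lysozymes. At an unadjusted p under 0.05 these 3 classes had 0, 1 and 0 members, and voom, which models the recovered reads, called 1 alpha-mannosidase, LManII, and 0 of the amylases and of the 5 lysozymes it could test. The reads of LysC and Jon74E were not recovered, so voom gave no value for them. Over the other tested members voom called 5 higher and 15 lower, against 3.82% higher and 8.09% lower (11.9% in either direction) of all genes it tested.

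**Figure D2:**
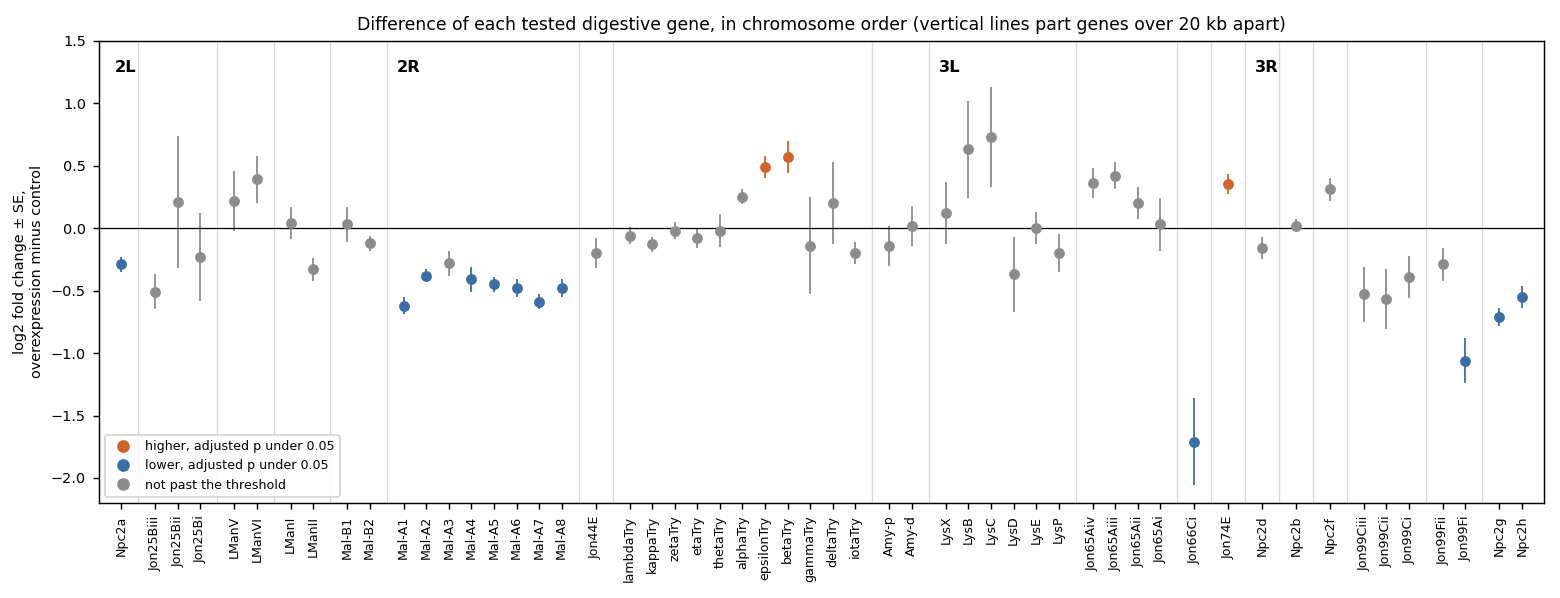
Log2 fold change of each tested gene with its standard error, in chromosome order, with orange for higher and blue for lower at an adjusted p under 0.05 and grey for the rest. The 8 Mal-A genes lie between -0.62 and -0.28, and the trypsins between -0.2 and 0.57.

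Of the 8 maltase genes of the Mal-A group 7 fell, and the estimate of the eighth, Mal-A3, was below 0. Mal-A1 to Mal-A8 lie side by side on chromosome arm 2R, between 8449664 and 8473961 (dm6), a stretch of 24.3 kb. Mal-A1 (FBgn0002570), the most abundant of them, measured 259, 284 and 293 FPKM in control replicates 1 to 3 and 173, 176 and 194 FPKM in overexpression replicates 1 to 3. Its groups did not overlap, and its log2 fold change was -0.62 ± 0.07 (SE, limma adjusted p = 0.00184). Mal-A7 (FBgn0033296) measured 159 to 166 FPKM in the controls, and 107 ± 6.82 FPKM (SD, n = 3) in the overexpression libraries with a highest value of 114 FPKM (-0.59 ± 0.06, limma adjusted p = 0.00127). Every overexpression library was therefore below every control library for both genes. Mal-A6 fell from 208 ± 14.7 to 149 ± 10.6 FPKM (SD, n = 3; limma adjusted p = 0.00705), Mal-A8 from 161 ± 10.6 to 115 ± 7.03 FPKM (adjusted p = 0.0056), Mal-A5 from 45.8 ± 2.75 to 33.2 ± 1.28 FPKM (adjusted p = 0.00455) and Mal-A2 from 33.6 ± 0.848 to 25.5 ± 0.777 FPKM (adjusted p = 0.00436). These 6 genes passed in each of the 15 alternatives run, with adjusted p up to 0.0257.

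Mal-A4 and Mal-A3 were less certain. Mal-A4 measured 111, 139 and 106 FPKM in the controls and 90.3, 87.9 and 87.2 FPKM in the overexpression libraries, again without overlap (limma adjusted p = 0.0361). Mal-A4 lost its call when control replicate 1 was left out (adjusted p = 0.0594) or when overexpression replicate 1 (0.0782), 2 (0.0895) or 3 (0.111) was, and also with no filter (0.0619), a common total (0.0699) or quantile normalization (0.062), with adjusted p over 15 alternatives from 0.00425 to 0.111. Mal-A3 measured 43.7 ± 2.95 and 36 ± 5.03 FPKM and did not pass (limma adjusted p = 0.135). Its overexpression replicate 2, at 41.4 FPKM, lay above the lowest control, at 40.7 FPKM. It passed without overexpression replicate 2 (log2 fold change -0.38, adjusted p = 0.038) and with voom (adjusted p = 0.0483).

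The 2 maltases outside that cluster, Mal-B1 and Mal-B2, lie together on 2L between 11847226 and 11852881. Mal-B1 measured 17.2 ± 3.35 FPKM in controls against 17.4 ± 2.11 FPKM with overexpression (limma adjusted p = 0.939), and Mal-B2 measured 62.7 ± 1.79 and 57.9 ± 4.42 FPKM (adjusted p = 0.331). Whether the Mal-A and Mal-B genes differ in response was not tested. Summed over the 8 Mal-A genes, the level was 1004, 1100.5 and 1050.4 FPKM in the controls and 698, 745 and 762 FPKM in the overexpression libraries, a ratio of 0.699.

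**Figure D3:**
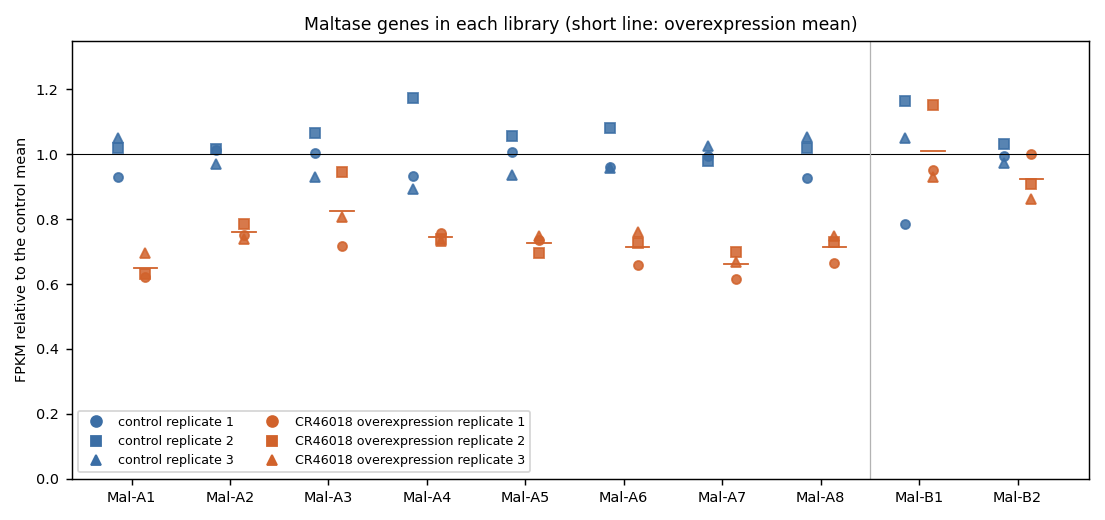
FPKM of each maltase gene in each library, divided by the mean of the 3 control libraries; blue points are controls, orange points overexpression libraries, short orange lines their means. The overexpression means of Mal-A1 to Mal-A8 lie between 0.649 and 0.824 of the control mean, that of Mal-B1 at 1.01 and that of Mal-B2 at 0.923.

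The trypsins held the most abundant digestive gene, alphaTry, and 2 of the 3 most abundant trypsin genes rose while the other 8 did not pass. The 11 genes form a cluster on 2R between 11336840 and 11357537 (20.7 kb). The 3 most abundant, alphaTry, epsilonTry and betaTry, are neighbours within it and were higher in every overexpression library than in every control library. Of these epsilonTry (FBgn0010425) rose from 292, 282 and 249 FPKM in the controls to 436, 361 and 365 FPKM in the overexpression libraries (0.49 ± 0.09 on the log2 scale, limma adjusted p = 0.0151), and it passed in all 15 alternatives. For betaTry (FBgn0010357) the controls measured 925, 683 and 715 FPKM and the overexpression libraries 1014, 1283 and 1131 FPKM (0.57 ± 0.13, limma adjusted p = 0.0321). Its call held in 9 of 15 alternatives and was lost, among others, without control replicate 2 (adjusted p = 0.102) or 3 (0.0869), without overexpression replicate 2 (0.0882) or 3 (0.0943) and with no filter (0.0631), with adjusted p over 15 alternatives from 0.00225 to 0.102. The most abundant of all, alphaTry (FBgn0003863), measured 3032, 2781 and 2941 FPKM in the controls and 3581, 3398 and 3419 FPKM in the overexpression libraries (0.25 ± 0.06, limma adjusted p = 0.0505). That value lay just past the threshold, and alphaTry passed in 6 of 15 alternatives, voom (adjusted p = 0.0107) and rescaling to a common total (0.0125) among them.

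The other 8 trypsin genes ranged in log2 fold change from -0.2 for iotaTry to 0.2 for deltaTry, and none passed. The pair gammaTry and deltaTry varied most between libraries. In the controls gammaTry measured 29.1, 18.1 and 61.5 FPKM and deltaTry 27, 18.4 and 51.7 FPKM, both highest in control replicate 3. CG30031 and CG30025, further genes inside the cluster that were not members by name, did not pass (log2 fold changes -0.53 and -0.38, limma adjusted p = 0.206 and 0.412). All 4 resemble each other closely, and how the counting shared reads among them is unknown. The sum of gammaTry and deltaTry was 68.6 ± 39.9 FPKM in controls against 64.3 ± 2.83 FPKM with overexpression. Since the abundant members set the sum, the summed level of all 11 trypsins was 4591, 4027 and 4274 FPKM in the controls and 5348, 5356 and 5222 FPKM in the overexpression libraries, without overlap and at a ratio of 1.24, while the median log2 fold change of the 11 genes was -0.02 and turned to 0.071 with a common total.

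Of the Jonah proteases Jon74E rose, and Jon66Ci and Jon99Fi fell. Jon65Aiv (FBgn0250815) and Jon65Aiii (FBgn0035665) on 3L are by far the most abundant of the class. Jon65Aiv measured 2014, 1729 and 1418 FPKM in the controls and 2367, 2065 and 2132 FPKM in the overexpression libraries. Jon65Aiii measured 1558, 1363 and 1126 FPKM and then 1927, 1702 and 1753 FPKM. In both genes all overexpression libraries lay above all controls, but neither passed (limma adjusted p = 0.122 and 0.0621). Without control replicate 1, the highest control, both passed (adjusted p = 0.0468 and 0.0285), as did the neighbouring Jon65Aii (0.0448), and both passed with voom (0.0307 and 0.00901) and with a common total (0.0452 and 0.0249). Jon74E (FBgn0023197, 3L, 17548077 to 17549127) rose from 165 ± 11.1 to 211 ± 21 FPKM (0.35 ± 0.08 on the log2 scale, limma adjusted p = 0.0362). That call held in 7 of 14 alternatives and was lost, among others, without control replicate 1 (adjusted p = 0.0885), 2 (0.059) or 3 (0.0915), without overexpression replicate 1 (0.0694) or 3 (0.0814) and with no filter (0.0601), with adjusted p from 0.0116 to 0.0915.

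Of the lower Jonah genes, Jon99Fi (FBgn0039778, 3R, 30488963 to 30489895) fell from 11.2, 13.4 and 7.95 FPKM to 3.8, 5.4 and 4.72 FPKM (-1.06 ± 0.18 on the log2 scale, limma adjusted p = 0.0101) and passed in all 15 alternatives. Its neighbour Jon99Fii measured 62.5 ± 9.05 and 50.8 ± 7.65 FPKM (adjusted p = 0.211). Jon66Ci (FBgn0035886, 3L, 8391540 to 8392377) showed the largest difference of all tested members, from 6.95, 20.9 and 7.49 FPKM to 2.84, 2.74 and 1.94 FPKM (-1.71 ± 0.35, limma adjusted p = 0.0231). Control replicate 2 was far above the other controls, yet the groups did not overlap. The call was lost without overexpression replicate 1 (adjusted p = 0.057), 2 (0.0532) or 3 (0.0802), and with a pseudocount of 5 its log2 fold change was -1.07. Its neighbour Jon66Cii was below the filter, with 4, 24 and 3 reads in the controls and 0, 1 and 0 in the overexpression libraries, a ratio of controls to overexpression of 33.1 (95% exact counting interval 5.52 to 1350). Most of those reads came from control replicate 2.

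The Jon99C genes on 3R and Jon25Biii on 2L had lower estimates that did not pass. Jon99Cii measured 331, 202 and 228 FPKM in the controls and 174, 221 and 121 FPKM in the overexpression libraries, so that the groups overlapped (limma adjusted p = 0.199), and the 3 Jon99C genes together summed to 438 ± 116 and 303 ± 82.1 FPKM. Jon25Biii measured 199.9, 155 and 151 FPKM and then 118, 139 and 98.2 FPKM, without overlap (-0.51 ± 0.14 on the log2 scale, limma adjusted p = 0.0691). It passed without overexpression replicate 2 (adjusted p = 0.0397), at a mean of at least 5 FPKM (0.0484) and with voom (0.0101). The remaining Jonah genes, Jon25Bi, Jon25Bii, Jon44E and Jon65Ai, measured under 20 FPKM in every library and had adjusted p from 0.357 to 0.957.

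Level and direction can be set side by side for the 26 tested serine proteases among the members. Other abundant serine proteases, such as yip7, are left out by the name rule. The 5 most abundant of the 26, alphaTry, Jon65Aiv, Jon65Aiii, betaTry and epsilonTry, with means of at least 331 FPKM, were each higher in all overexpression libraries than in all controls. The trypsins among them are neighbours on 2R and the Jonah genes lie within 15.3 kb on 3L, so the 5 need not be independent. Of the other 21, with means up to 213 FPKM, 1 was higher in this way and 3 were lower, against 12.2% higher and 16.2% lower of all genes tested. This split by level was made after the values were seen and was not tested. The 4 most abundant members, alphaTry, Jon65Aiv, Jon65Aiii and betaTry, made up 61.9% of the summed FPKM of all 60 genes, which was 11775 ± 1072 FPKM in controls against 13016 ± 494 FPKM with overexpression, with overlapping groups.

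**Figure D4:**
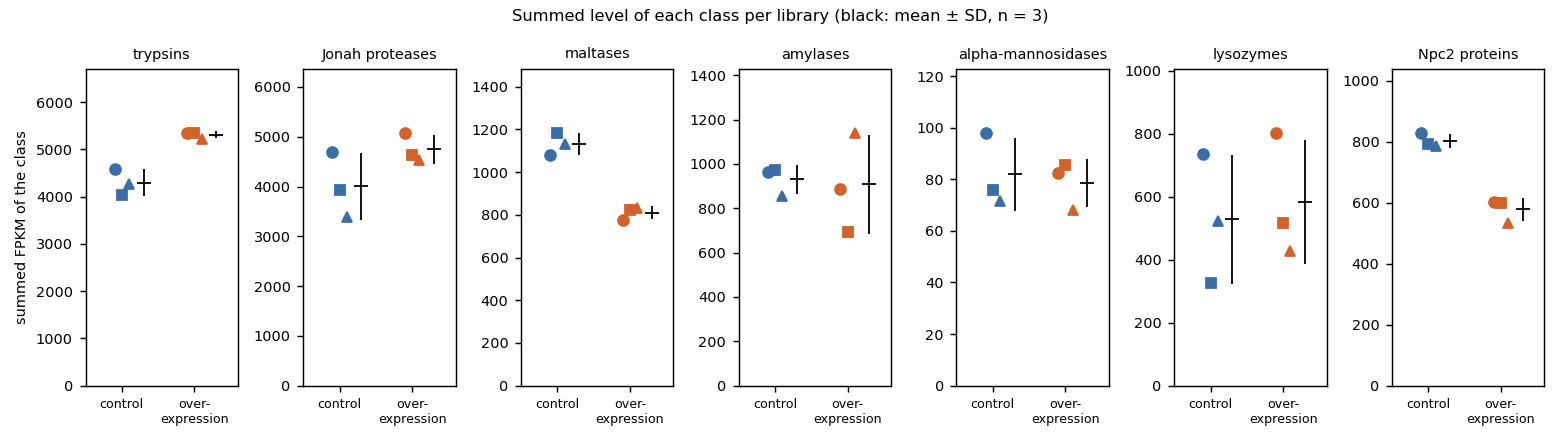
Summed FPKM of all members of each class in each library (blue, controls; orange, overexpression; circles, squares and triangles for replicates 1, 2 and 3), with the mean ± SD (n = 3) in black; each panel starts at 0 and has its own scale. The maltase sums of 777 to 832 FPKM and the Npc2 sums of 533 to 602 FPKM in overexpressing flies lie below all controls, the trypsin sums lie above, and the sums of the other 4 classes overlap.

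The Npc2 genes that fell were Npc2g, Npc2h and Npc2a. Npc2g (FBgn0039800, 3R, 30744605 to 30745263) held 54.8% of the summed FPKM of this family. It measured 485, 459 and 467 FPKM in the controls and 297, 303 and 259 FPKM in the overexpression libraries (-0.71 ± 0.07 on the log2 scale, limma adjusted p = 0.00122). Its neighbour Npc2h (FBgn0039801), 215 bp away from it, measured 82.3, 73.6 and 69.5 FPKM and then 52.3, 55.2 and 46 FPKM (-0.55 ± 0.09, limma adjusted p = 0.00798). Both passed in all 15 alternatives. Npc2a, which carries cholesterol out of lysosomes together with the membrane protein Npc1a, fell from 113 ± 4.3 to 92.6 ± 6.38 FPKM (limma adjusted p = 0.0299). Its call held in 7 of 15 alternatives and was lost, among others, without control replicate 1 (adjusted p = 0.0687), 2 (0.0951) or 3 (0.0583), without overexpression replicate 2 (0.0554) or 3 (0.0903), with a common total (0.0882) and with quantile normalization (0.0774). Npc2b measured 102 ± 3.56 and 103 ± 4.16 FPKM (adjusted p = 0.901) and Npc2d 28.4 ± 2.32 and 25.2 ± 2.9 FPKM (adjusted p = 0.333). Npc2f measured 14.9 ± 0.905 and 18.8 ± 2.09 FPKM, higher without overlap (adjusted p = 0.0705), and passed without overexpression replicate 3 (0.0301) and with a common total (0.0306). Npc2c and Npc2e were below the filter. Npc2c had 0 reads in the controls and 0, 6 and 4 reads in overexpression replicates 1 to 3, at least 3.12-fold higher than a floor of 3 reads over the control group; 414 of its 708 exonic bp overlap an antisense gene, asRNA:CR45205, and whether counting used strand is unknown here. Npc2e had 0 reads in the controls and 2 in overexpression replicate 2.

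The amylase genes Amy-p and Amy-d are near-identical neighbours on 2R, and reads could have gone to either. Amy-p measured 487, 511 and 457 FPKM in the controls and 436, 339 and 569.9 FPKM in the overexpression libraries, and Amy-d measured 476, 460.5 and 399 FPKM and then 452, 355 and 571 FPKM. The 3 overexpression libraries spread on both sides of the controls, and neither gene passed (limma adjusted p = 0.659 and 0.954). Both genes were highest in overexpression replicate 3 and lowest in overexpression replicate 2. The summed level of the pair was 930.4 ± 64.3 and 908 ± 224 FPKM.

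Among the alpha-mannosidases, LManII was the most abundant, at 48.5 ± 2.82 FPKM in controls against 38.5 ± 4.82 FPKM with overexpression (limma adjusted p = 0.0697), and passed with voom (0.0142), without overlap between the groups. LManVI measured 26.3, 15.9 and 15.2 FPKM and then 25.3, 26.6 and 22.2 FPKM (adjusted p = 0.25). Control replicate 1 lay within the overexpression group, and without it LManVI passed (log2 fold change 0.63, adjusted p = 0.00956). LManV, its neighbour on 2L, measured 8.71 ± 3.86 and 9.82 ± 1.47 FPKM (adjusted p = 0.656). LManI was at 4.73 ± 0.866 and 4.89 ± 0.671 FPKM (adjusted p = 0.885). LManIII and LManIV were below the filter, with 141 and 15 reads in the controls against 128 and 16 in overexpressing flies.

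The lysozyme genes lie on 3L between 1194739 and 1228238 and were the class with the widest spread between replicates. LysD measured 322, 131 and 216 FPKM in the controls and 215, 149 and 132 FPKM in the overexpression libraries (limma adjusted p = 0.527). LysB measured 112, 39.4 and 68 FPKM and then 161, 96.5 and 72.3 FPKM (adjusted p = 0.384). LysC, which the annotation lists as a pseudogene, measured 187, 65.2 and 124 FPKM and then 309, 168 and 135 FPKM (adjusted p = 0.326). Control replicate 1 was the highest control for 5 of the 6 tested lysozymes, and overexpression replicate 1 the highest of its group for all 6. LysB, LysC, LysD and LysE are likewise so similar that reads could be shared among them, and their sum was 498 ± 204 FPKM in controls against 555 ± 192 FPKM with overexpression. LysE, LysP and LysX did not pass either, with adjusted p of 0.994, 0.468 and 0.829. LysS was just below the filter at a mean of 0.967 FPKM, with 9, 5 and 4 reads in the controls and 17, 12 and 9 in the overexpression libraries.

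The same library stood high in other classes. Control replicate 1 was the highest of the 3 controls for 33 of the 54 tested members, among them 12 of 15 Jonah proteases and 0 of 10 maltases, while it was the highest control for 30.7% of all genes tested. Overexpression replicate 3 was the lowest of its group for 31 of 54, against 31.7% of all genes tested. The part of this spread in the results above was not tested beyond leaving out each library.

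Position along the chromosome was not a criterion of the name rule, but genes of a family share a name and often lie side by side. The clustering is therefore not independent of the choice of members. Of the 60 genes 55 lie within 20 kb of another member, in 14 clusters. For the 8 clusters of 3 or more members, the 3 nearest tested genes on each side came to 48 genes, of which 2 were higher and 0 lower, against 8.76% called among all genes. Beside the Mal-A cluster, Cyp4e1, a cytochrome P450 gene that overlaps the end of Mal-A1 by 82 bp on the other strand, measured 20.8 ± 1.24 and 17 ± 1.23 FPKM (log2 fold change -0.28, limma adjusted p = 0.054), and the other 5 neighbours had estimates from -0.18 to 0.09 and did not pass. Beside the Jon65A cluster, yip7, a serine protease gene of the same family that the name rule leaves out, rose from 976, 852 and 728 FPKM in the controls to 1351, 1283 and 1369 FPKM in the overexpression libraries (0.66 ± 0.10, limma adjusted p = 0.00738). Inside the lysozyme cluster, CG9119 fell from 59.5 ± 2.35 to 33.4 ± 3.67 FPKM (adjusted p = 0.00123) while none of the tested lysozymes passed. The other neighbour that passed was CG42710 beside LManVI (adjusted p = 0.0434).

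**Figure D5:**
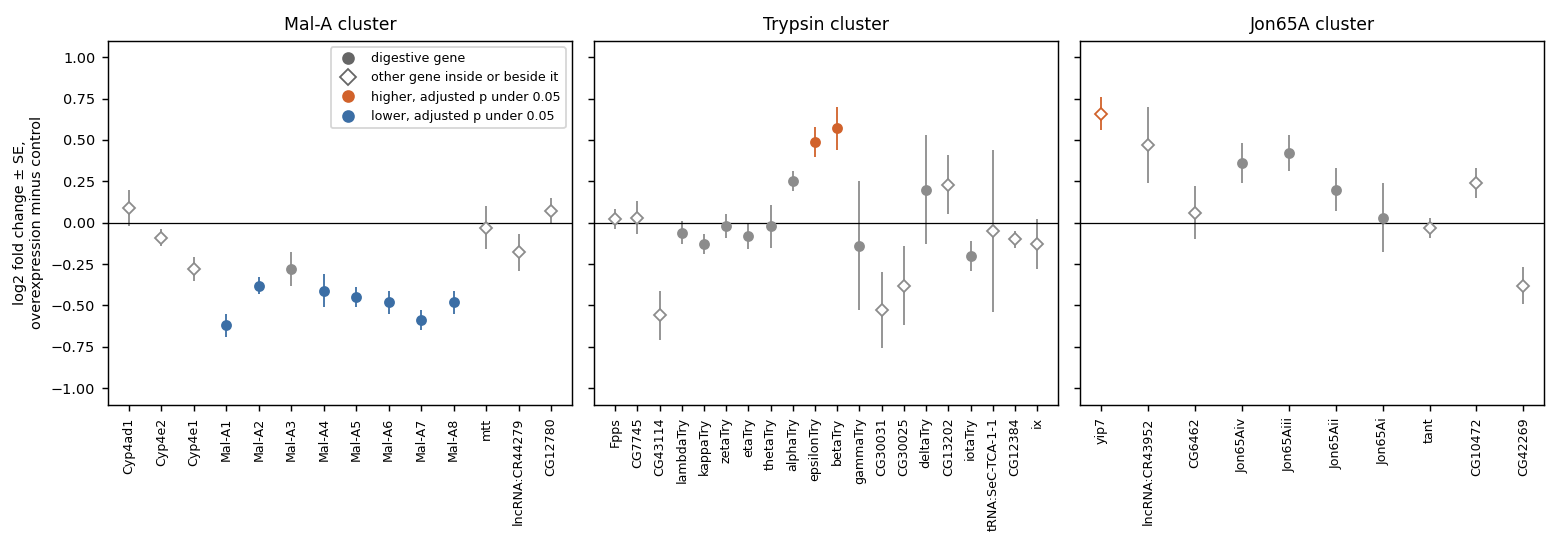
Log2 fold change ± SE of the genes of the Mal-A, trypsin and Jon65A clusters (filled circles) and of the tested genes inside and beside them (open diamonds), in chromosome order and evenly spaced; orange is higher and blue lower at an adjusted p under 0.05. The neighbours of the Mal-A cluster lie between -0.28 and 0.09, and yip7 lies at 0.66.

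Other genes of digestion were listed by name. Of 17 tested genes of this list, 2 rose and 4 fell (median -0.14), against 2.45% higher and 6.31% lower among all genes tested (median -0.0024). The rises were those of yip7 and of the serine protease gene Ser6, from 4.21 ± 0.108 to 6.78 ± 0.764 FPKM (limma adjusted p = 0.00747). The trypsin gene Try29F fell from 29.2 ± 6.63 to 10.4 ± 0.653 FPKM (-1.38 ± 0.14 on the log2 scale, adjusted p = 0.00153). The alpha-glucosidase gene tobi, a relative of the maltases known as a target of insulin signalling, measured 138, 137 and 138 FPKM in the controls and 45.5, 95.6 and 69.7 FPKM in the overexpression libraries (-1.02 ± 0.22, limma adjusted p = 0.0273). The aspartic protease gene cathD, which acts in lysosomes, fell from 372 ± 25.5 to 297 ± 7.54 FPKM (adjusted p = 0.0191), and the fourth fall was that of Acbp2, which binds acyl-CoA. Npc1a and Npc1b, the membrane partners of the Npc2 proteins, did not pass (adjusted p = 0.746 and 0.538).

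Markers of the gut and of other tissues were read beside these values. Of 16 tested markers of enterocytes, their junctions and the peritrophic matrix, 2 rose and 0 fell (median 0.13), against the same 2.45% and 6.31% of all genes. They were PGRP-SC1a (limma adjusted p = 0.00771) and PGRP-SC1b (0.0139), both peptidoglycan amidases at under 6 FPKM. The summed level of the listed genes was 605 to 703 FPKM in controls and 708 to 760 FPKM in overexpressing flies, most of it PGRP-SC2, at 381 ± 59 and 465 ± 23.4 FPKM. The enterocyte regulator GATAe measured 6.06 ± 0.335 and 7.78 ± 0.683 FPKM (adjusted p = 0.0515), and mex1 13.3 ± 1.08 and 14.6 ± 2 FPKM (adjusted p = 0.535); Peritrophin-15b was at 0 in all libraries. Only 4 stem and progenitor cell markers were tested, Sox100B, klu, vn and Krn, of which 0 rose and 0 fell. The names Dl and hdc matched no gene identifier, and the identifier looked up for esg (FBgn0287768) gave no match. The listed esg, Dl and hdc were therefore not analysed here, and other identifiers for them were not checked. Sox21a and upd3 were below the filter. The listed genes that were found summed to 14.7 to 16.2 FPKM in controls and 14.6 to 18.6 FPKM in overexpressing flies. Most of that sum was Krn, at 9.96 ± 0.336 and 10.3 ± 1.12 FPKM. Among 10 enteroendocrine markers 1, CCHa2, fell (limma adjusted p = 0.0242) and 0 rose, with a median of 0.02. The listed genes summed to 181 to 194 FPKM in controls and 156 to 169 FPKM in overexpressing flies. CCHa2 was the most abundant of them, at 71.5 ± 7.28 and 47.3 ± 8.23 FPKM, so the lower sum does not describe the whole list. Of markers of other tissues, against 6.31% lower among all genes tested, 5 of 8 fat body genes (summed 239.5 to 311 FPKM in controls and 105 to 148 FPKM in overexpressing flies), 5 of 10 hemocyte genes (174 to 186 and 107 to 137 FPKM) and 6 of 11 muscle genes (2634 to 3219 and 2122 to 2355 FPKM) were lower and 0 were higher. The lower hemocyte genes were NimC1, Ppn, Sr-CI, Col4a1 and vkg. Hml, eater, Pxn, crq and srp did not pass (limma adjusted p from 0.108 to 0.994), so the fall did not extend over the whole list. Of 9 Malpighian tubule markers 1 rose, Uro, and 1 fell, Oatp58Db, and the summed level overlapped at 274 to 298 and 283 to 296 FPKM. Of the lists after the enterocyte one, no marker that was found was at 0 in all libraries. The part of any of these tissues in the changes of the digestive genes was not tested.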

How the data were processed

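Polyadenylated RNA was sequenced in paired ends, aligned with HISAT2 2.0.5 and counted per gene with featureCounts 1.5.0-p3, per the labels' protocols. The genome build was dm6, per the submitters' processing notes. Not given in these sources are the annotation release, the strand setting, the treatment of reads with several alignments and the FPKM formula. The authors deposited FPKM in 1 column for each library. Of 17558 identifiers 17252 matched a symbol. FPKM times the exonic length of the gene (Ensembl annotation of the same assembly) gave whole reads in all 6 libraries, within 0.01 reads, for 97.6% of expressed genes of known length and for 58 of the 60 members, the exceptions being Jon74E and LysC. The depths given are sums of these recovered reads, and intervals and floors cover counting error only.

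Genes with a mean of at least 1 FPKM were tested on log2(FPKM + 1) with limma 3.58.1 in R 4.3.3 (empirical Bayes with a mean-variance trend, two-sided), with Benjamini-Hochberg adjustment over all 12251 genes and calls at adjusted p under 0.05. On this scale the fold change of a gene with low values is understated. The procedure was also run on simulated reads in which each gene was drawn independently. That simulation held no effects shared by the genes of a library, so it does not show how the procedure handles them. Replicates differed by more than counting noise, with a chi-square per degree of freedom from 6.57 to 9.73 over 10769 genes, and were all kept. Named were the members past the threshold, the 3 most abundant of each class, those with groups that did not overlap and a log2 fold change of at least 0.5 in size, and up to 4 genes of each other list. Other genes were named after their values were seen. The members and lists were chosen with earlier results of these data known. Alternatives were other pseudocounts, filters and scalings, voom on recovered reads, a replicate block and leaving out each library; sums over neighbouring copies were added after seeing the data.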

Additional observations from a re-analysis of the deposited data

How the results depend on the processing

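Of all genes tested, 300 were higher and 773 lower. With a common total the counts were 826 and 484, which raised the share of higher calls from 28% to 63.1%, and without 1 library they ran from 137 to 283 and from 427 to 629. The FPKM totals were 694593 to 708815 in control and 646862 to 668227 in overexpression libraries. Scaling to a common total therefore raised overexpression values relative to controls, and the median of all genes moved from -0.002 to 0.082. Why the totals differ was not tested. The counts without 1 library rest on fewer libraries, and the cause of their change was not tested. The count of members called higher, 3 as reported, was 1 with no filter, 5 at a mean of at least 5 FPKM, 5 with quantile normalization, 5 with voom, 7 with a common total and 1 to 6 without 1 library. The count called lower stayed between 9 and 15 in all 15 alternatives. The median of the members moved from -0.134 to -0.04 with a common total. Estimates near 0 changed sign: the trypsin median was 0.071 with a common total and ran from -0.089 to 0.04 without 1 library. Npc2b was at -0.01 without control replicate 3 or overexpression replicate 1, Amy-d ran from -0.15 to 0.19 and Amy-p from -0.33 to 0.04 without 1 library.

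Over all genes tested, the replicate numbers showed no pairing of the libraries: deviations of same-numbered libraries correlated at 0.046, -0.076 and 0.026. Single classes could differ. Replicate 1 was the highest for 5 of 6 tested lysozymes in controls and for 6 with overexpression. Under the replicate block LysB, LysC and LysD had lower adjusted p than without it (limma, 0.133, 0.0942 and 0.259) and did not pass. With the replicate block 219 genes were higher and 616 lower, and 2 members were higher and 12 lower. Under the block betaTry (limma adjusted p = 0.0687), Jon74E (0.0502) and Npc2a (0.0501) did not pass, and Jon65Aiii (0.0442) and LManII (0.0469) did. Summing members with proteins at least 95% identical was not run, because protein sequences were not used here. Members below a mean of 1 FPKM were too low to test, and low tested members rest on few reads, as Jon66Ci does with 126 in the overexpression group.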
